A study of Mus musculus with 30 samples.

Results

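Gene expression was compared between 4 control vector fibres taken 14 days after injection and 4 taken 7 days after injection, which are 8 of the 30 single muscle fibres of the study. They were chosen by their titles alone, which read AAVshLuc with 14 or 7 days. All fibres are of the extensor digitorum longus (EDL), a fast muscle of the lower hindlimb, of male CD1 mice that were 8 weeks old when adeno-associated virus (AAV) was injected along it. The study as a whole asks what raising or silencing MCU, the pore protein of the mitochondrial calcium uniporter, does to fast fibres, and the control vector is not meant to change it. The titles name a hairpin against luciferase, a firefly enzyme that mice do not have, whereas the sample descriptions speak of a virus without an insert, and the labels do not settle which it was. The labels do not name the promoter of the hairpin, and they do not say how many animals the 4 fibres of a day came from. Fibres were freed with collagenase and picked by hand, and those of injected muscles were kept if they showed the green marker ZsGreen. Some fibres of a day may thus come from 1 animal, and each p-value measures only how far single fibres vary.

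Each fibre was hybridised to a 1-colour Agilent array of its own. The 4 fibres of day 7 lie on 1 slide and the 4 of day 14 on another, so that day and slide cannot be told apart in any value below. The 7 MCU silencing fibres (3 of day 7 and 4 of day 14) lie on the same 2 slides and 8 wild type fibres, without a vector, on another pair. Levels are given as log2 of a gene's signal relative to the 75th percentile of its array, so that 0 is the signal of a probe brighter than 75% of all probes. The 75th percentile lay between 106.5 and 128.3 intensity units on the 8 arrays, and 50.6% to 56.5% of the probes were well above background. Myh4, the myosin heavy chain of the fastest fibres, read 7.49, 7.48, 7.52 and 7.54 in the day 7 fibres and 7.43, 7.53, 7.56 and 7.47 in the day 14 fibres. Myh7, the slow myosin heavy chain, read between -0.78 and -0.31 in all 8. Both were above background on all 8, and levels of different probes cannot be set against each other. The mean of 12 slow sarcomere genes was 1.89 in fibre 3 of day 7, against 0.19 to 0.84 in the other day 7 fibres and 0.40 to 0.93 at day 14. Myh1, the 2X myosin, spread from 1.86 to 6.17 at day 7 and from -1.09 to 4.77 at day 14 and did not pass the test (adjusted p = 0.55 by limma). Across all genes, fibres of the same day correlated with r from 0.959 to 0.981 at day 7 and from 0.968 to 0.979 at day 14, and fibres of different days from 0.947 to 0.973. On the axis of largest variation, which holds 31.4% of it, the day 7 fibres scored -22.3, -23.3, -77.3 and -2.65 and the day 14 fibres 6.50, 34.5, 45.7 and 38.9. Fibre 3 of day 7 stood apart from the other 7.

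AAV vectors stay mostly as free DNA in the nuclei of muscle fibres, where expression of their cargo builds up. Cells that sense foreign nucleic acid release interferons, which switch on a set of antiviral genes through STAT proteins and interferon regulatory factors. These factors bind the interferon-stimulated response element and the gamma-activated site in the promoters of their targets. Fast fibres also adjust their mitochondria, their neuromuscular junction and their ion channels to how they are used and to whether they are innervated.

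Control vector fibres of day 14 showed a strong rise over day 7 of 2 antiviral Ifit genes, of the factor Irf1 and of the lipid enzyme Gdpd3, and a fall of the potassium channel subunit Abcc9 and of the splicing factor Cwc27. The 2 Ifit genes are near-copies that no control vector fibre of day 7 measured. Ifit3 at day 14 was lower than in some other groups of the study. Of 26 interferon and antiviral genes tested, 3 were higher and 1 lower. Genes of mitochondrial respiration were slightly higher at day 14 almost throughout, though few passed the test singly. Of 23336 genes tested with limma, 750 passed at an adjusted p below 0.05, which is 3.21% of them. At day 14, 463 of these were higher (1.98%) and 287 lower (1.23%). The median difference over all genes was 0.03 on the log2 scale. Most changes were below 2-fold, and 171 rises and 113 falls reached it. At an unadjusted p below 0.05 by limma there were 4608 of the 23336 genes, in either direction. The counts of list members at that level given below are to be read beside this share.

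The split of the calls depended on how arrays were scaled to each other. With the 75th percentile 61.7% of the calls were higher at day 14, and with scaling to the median 448 genes passed, of which 44.2% were higher. The number of calls depended on single fibres. It was 407 without fibre 3 of day 7 and 498 without fibre 1 of that day. Leaving out fibre 2, 3 or 4 of day 14 gave 402, 364 and 403 calls. A fit of the 8 control vector arrays alone, whose spread rests on these fibres only, called 0.459% of the genes, 59 higher and 48 lower.

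**Figure D1:**
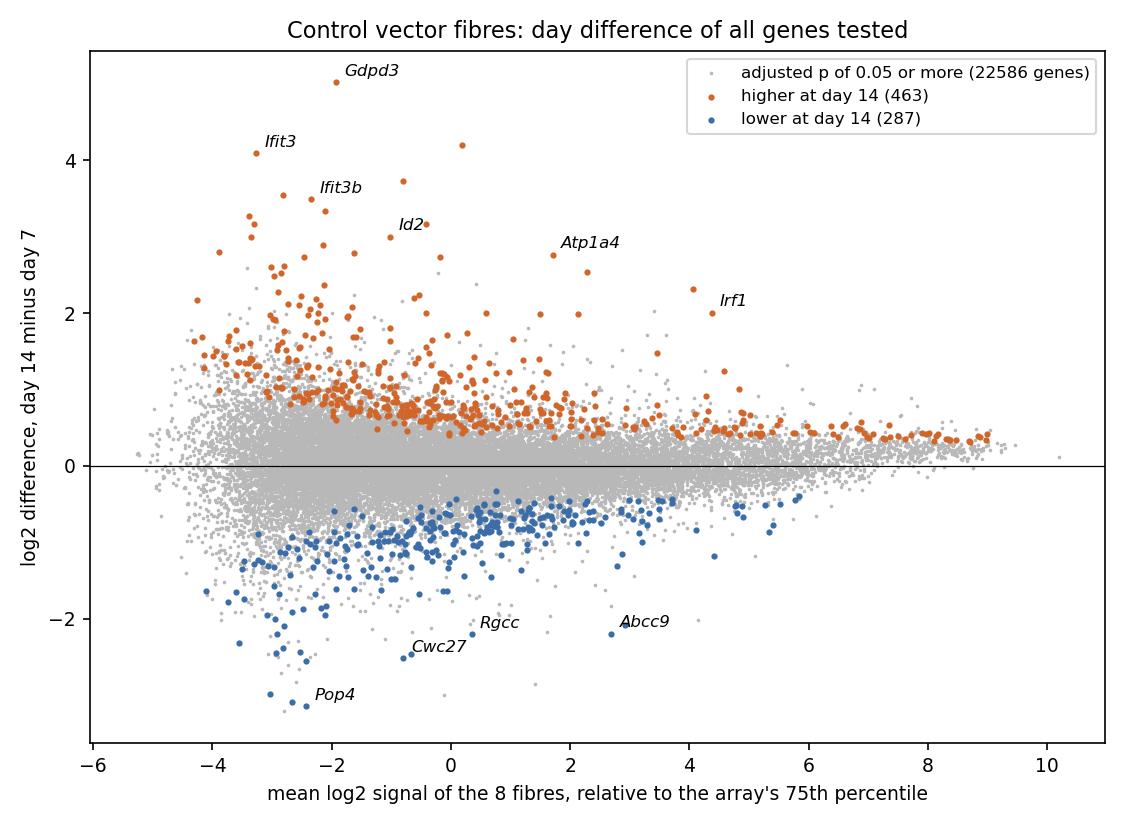
Day difference (log2, day 14 minus day 7) of the 23336 genes tested against their mean log2 signal over the 8 control vector fibres; orange and blue points are the 463 higher and 287 lower genes at an adjusted p below 0.05. The largest differences are of dim genes at the left, whereas Abcc9 and Irf1 are moderately to strongly expressed.

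Signal near background limits part of the list. Of the 750 genes, 553 were well above background on all 8 fibres. Another 80 were above it on no fibre of a day, 53 of them at day 7 and 27 at day 14, and 7 were above it on none of the 8. For a gene that no fibre of a day measured, a bound is given in place of a fold change: the brighter group's mean over the lowest signal that counts as measured in the dimmer group. The fibres of the 2 days did not overlap for 642 of the 750. Over all genes tested, every day 14 fibre was above every day 7 fibre for 1645 (7.05%) and below for 993 (4.26%).

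The rise of Ifit3, Ifit3b and Irf1 is shown first with the promoters of these genes. Ifit3 and Ifit3b are neighbouring near-copies on chromosome 19 whose proteins take part in complexes that bind foreign RNA, and Irf1 is a transcription factor that interferon gamma induces. The stretches below lie before the start sites and are from RefSeq's mouse build GRCm38.p6, 5′ to 3′ on the gene's strand, which is the plus strand for all 3. They are shown because the results for interferon genes turn on these 3 members. Capitals mark the core of the interferon-stimulated response element, GAAANNGAAA read on either strand, in the Ifit genes, and the gamma-activated site, TTCNNNGAA on either strand, in Irf1.
Ifit3, chr19:34583359-34583448: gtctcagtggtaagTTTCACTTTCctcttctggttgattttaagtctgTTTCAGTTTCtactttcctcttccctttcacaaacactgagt
Ifit3b, chr19:34607757-34607846: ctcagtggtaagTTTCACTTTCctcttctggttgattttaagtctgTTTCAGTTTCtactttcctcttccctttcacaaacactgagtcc
Irf1, chr11:53769894-53769953: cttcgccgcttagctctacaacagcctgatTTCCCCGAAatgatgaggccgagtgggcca
Both Ifit promoters hold the response element 2 times, on the minus strand, from 156 to 147 and from 122 to 113 bases before the start of Ifit3, and from 188 to 179 and from 154 to 145 bases before that of Ifit3b. The 2 windows share a run of 169 identical bases. In Irf1 the gamma-activated site lies 90 to 82 bases before the start and its pattern is its own reverse complement, so that a match on 1 strand is a match on both. Among 32851 promoter windows of 300 bases (250 before and 50 after a start), 3.44% hold the response element core and 8.3% the gamma-activated site. Of the 17 interferon list genes that were tested and have a window, 9 hold the response element core. Beside Ifit3 and Ifit3b they are Bst2, which was lower, and Isg15, Oas1a, Rsad2, Stat2, Ifitm3 and Eif2ak2, which did not pass. Irf1, which rose, does not hold it. The gamma-activated site is also in windows of Oas1a, Bst2, Ifi35, Ifitm3, Samhd1 and Eif2ak2. The motifs thus do not mark only genes that rose. Such a match is a description of the letters and does not show binding.

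Ifit3 read -5.52, -5.46, -5.12 and -5.17 in the day 7 fibres and -1.11, -1.70, -0.88 and -1.21 in the day 14 fibres. No day 7 fibre was above background and all 4 day 14 fibres were, so that the rise was at least 3.47-fold; the measured means were -5.32 and -1.22, with a difference of 4.09 (SE 0.33, adjusted p = 2.29e-08 by limma). The probe lies at chr19:34663105-34663164 in mouse build mm9. Ifit3b read -4.40, -3.15, -4.76 and -4.07 at day 7 and 0.06, -1.29, -0.57 and -0.61 at day 14. This gene too was measured on no fibre of day 7 and on every fibre of day 14, a rise of at least 5.33-fold (means -4.09 and -0.60, difference 3.49, SE 0.36, adjusted p = 1.52e-06 by limma), and its other probe differed by 4.55. Its probe lies at chr19:34687522-34687581 (mm9). Hybridisation cannot fully separate near-copies, so that the values of Ifit3 and Ifit3b are not independent of each other.

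Irf1 was well expressed on every array. It read 3.36, 3.46, 3.18 and 3.48 at day 7 and 5.36, 4.60, 5.44 and 6.10 at day 14. The day 7 fibres lay close together and all 4 day 14 fibres were above them, with a difference of 2.00 (SE 0.41, adjusted p = 0.00944 by limma), or 4.01-fold. Its other probe differed by 1.96. The probe of Irf1 lies at chr11:53590746-53590805 (mm9).

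Few other interferon genes passed. Of 26 interferon and antiviral genes tested, 3 were higher, namely Ifit3, Ifit3b and Irf1, and 1 was lower, and at an unadjusted p below 0.05 there were 8 higher and 2 lower. The lower gene was Bst2, which encodes tetherin, a membrane protein that holds back budding viruses. Bst2 read -0.64, -0.42, 0.09 and -0.58 at day 7 and -0.68, -1.02, -1.37 and -1.37 at day 14 (difference -0.72, SE 0.20, adjusted p = 0.0483 by limma). The groups lay next to each other without overlap, and the call was lost in 16 of 19 alternative settings. The median of the list was 0.11, beside 0.03 for all genes, and it ran from 0.01 to 0.14 over the alternative settings. Stat2, a signal transducer of interferons, differed by 1.16 without passing (adjusted p = 0.151). Oas1a, a sensor of double-stranded RNA, differed by 0.61 and Ifi27 by -0.82 (adjusted p = 0.27 and 0.0746). Isg15, Rsad2 and Ifitm3, above background on every fibre, differed by -0.04, -0.32 and -0.65 (adjusted p = 0.932, 0.377 and 0.352 by limma). Of the 26 genes, 15 had a positive difference (57.7%, against 53.3% of all genes).

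Antigen presentation and nucleic acid sensing showed no call. None of 16 genes of MHC class I and peptide loading passed by limma, with 4 higher at an unadjusted p below 0.05 and a median of 0.17 (0.09 to 0.32 over the alternative settings). H2-D1, a classical class I heavy chain, read 3.30, 3.22, 3.67 and 2.38 at day 7 and 4.17, 4.03, 4.07 and 4.32 at day 14. All 4 day 14 fibres were higher, but the adjusted p was 0.0914 by limma. H2 genes are alike in sequence, and H2-D1 and H2-Q7 (difference 0.85, adjusted p = 0.185) may share signal. None of 14 interferon-inducible GTPases (median 0.13, from 0.05 to 0.20 over the settings, 1 higher at an unadjusted p below 0.05), of 8 MHC class II genes (none at that level) or of 10 nucleic acid sensors (median 0.23, from 0.08 to 0.26, 2 higher at that level) passed by limma. Among cytokines and NF-kB genes 0 of 15 passed by limma, and 2 were higher and 3 lower at an unadjusted p below 0.05. Cxcl10, a chemokine that attracts T cells, read 2.61, 0.69, -0.31 and 2.51 at day 7 and -5.15, -0.15, -0.49 and -0.70 at day 14. The 2 groups overlapped, and its difference of -3.00 had an adjusted p of 0.106. Nfkbia, the inhibitor that holds NF-kB in the cytosol, differed by -0.99 (adjusted p = 0.0643).

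Markers of immune cells were examined beside these genes. Of 11 macrophage and myeloid markers tested, none passed by limma, and their summed signal was 238 to 281 times the 75th percentile at day 7 and 279 to 310 times at day 14, most of it from Itgam. None of 5 neutrophil markers tested passed by limma, and none did at an unadjusted p below 0.05. Their summed signal was higher on every day 14 fibre (198 to 214) than on any day 7 fibre (181 to 192), with 4 of 5 differences positive and a median of 0.25. Nearly all of that sum was Csf3r, the receptor of a granulocyte growth factor (means 7.54 and 7.68), and the defining markers S100a8 and S100a9 were not tested. The macrophage markers Mrc1, Cd163, Lyz1 and Tyrobp were not tested because they were not above background on enough fibres of any group. Of 8 lymphocyte markers tested, 1 was lower, Gzmb, a protease of killer cells. Gzmb was dim and above background on no fibre of day 14, a fall of at least 1.51-fold (means -2.20 and -3.14, adjusted p = 0.0332 by limma), and its call was lost in 11 of 18 alternative settings. The summed lymphocyte signal was 4.75 to 5.37 at day 7 and 4.76 to 6.21 at day 14, and the ranges overlapped. The lymphocyte markers Cd3d, Cd3g and Ms4a1 were among those not tested. The part of other cells in the rise of Ifit3, Ifit3b and Irf1 was not tested.

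Apart from the interferon genes, the largest rises were of genes with no common list. Gdpd3, an enzyme that releases lysophosphatidic acid from lysophospholipids, read -5.25, -3.82, -4.84 and -3.83 at day 7 and 1.20, -0.03, 0.85 and 0.32 at day 14. It was measured on no day 7 fibre and on all 4 of day 14, a rise of at least 12.2-fold (means -4.44 and 0.59, difference 5.02, SE 0.44, adjusted p = 1.01e-07 by limma). Its probe lies at chr7:133914520-133914693 (mm9). Snph encodes syntaphilin, which anchors mitochondria in nerve processes, and Espn encodes espin, which bundles actin. Snph was at least 3.95-fold higher (means -4.58 and -1.04, SE 0.75, adjusted p = 0.0122) and Espn at least 5.91-fold higher (means -3.79 and -0.44, SE 0.35, adjusted p = 2.26e-06). Another probe of Espn, dimmer on average, had a difference of -0.74, so that the 2 probes disagree.

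Id2, an inhibitor of helix-loop-helix factors and a target of BMP signals, read -5.55, -2.34, -0.93 and -1.26 at day 7 and 1.77, 0.32, -0.37 and 0.19 at day 14. The groups did not overlap, but 1 day 7 fibre was far below the other 3. The difference was 3.00 (SE 0.80, adjusted p = 0.0403 by limma), and the call was lost in 13 of 18 alternative settings. Of 20 genes of the myostatin, activin and BMP list Id2 was the only call, with a list median of -0.18. Fgl2, a prothrombinase of the fibrinogen family, differed by 2.89 (SE 0.75, adjusted p = 0.0351) and lost its call in 11 of 18 settings.

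Klk1b16 and Klk1b26, serine proteases of the tissue kallikrein family, differed by 3.16 and 2.78 (adjusted p = 0.00228 and 0.0171 by limma). The call of Klk1b26 was lost in 4 of 18 settings, among them those without fibre 1 or 2 of day 7 or fibre 2 of day 14. Klk1b16 was above background on no day 7 fibre, which sets its rise at 2.46-fold or more. These genes are close copies in a cluster on chromosome 7, and probes of the family may share signal. Cobll1, a relative of the actin regulator cordon-bleu, was at least 1.44-fold higher (means -5.29 and -2.49, adjusted p = 0.00247).

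Atp1a4 and Togaram2 were measured on all 8 fibres. Atp1a4, a catalytic subunit of the sodium pump known from sperm, read 0.41, 0.44, 0.34 and 0.11 at day 7 and 3.01, 3.60, 2.41 and 3.34 at day 14. Every day 14 fibre was well above every day 7 fibre, with a difference of 2.77 (SE 0.68, adjusted p = 0.0264 by limma), a 6.80-fold rise, and its other probe differed by 2.84. The call of Atp1a4 was lost in 4 of 19 alternative settings, each of which left out a fibre (fibre 3 or 4 of day 7, fibre 2 or 4 of day 14). Togaram2 differed by 2.74 (SE 0.61, adjusted p = 0.0151), and its other probe by 2.53.

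Glud-ps, a pseudogene of glutamate dehydrogenase, lay outside the 12 largest rises but had a small error. It read -1.36, -2.06, -1.76 and -1.42 at day 7 and 0.26, 0.57, 0.81 and 0.71 at day 14. Its difference of 2.24 (SE 0.15) had an adjusted p of 8.14e-10 by limma. Its parent gene Glud1 differed by 0.07 (adjusted p = 0.852), though signal of a pseudogene and its parent may not be fully separable.

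**Figure D2:**
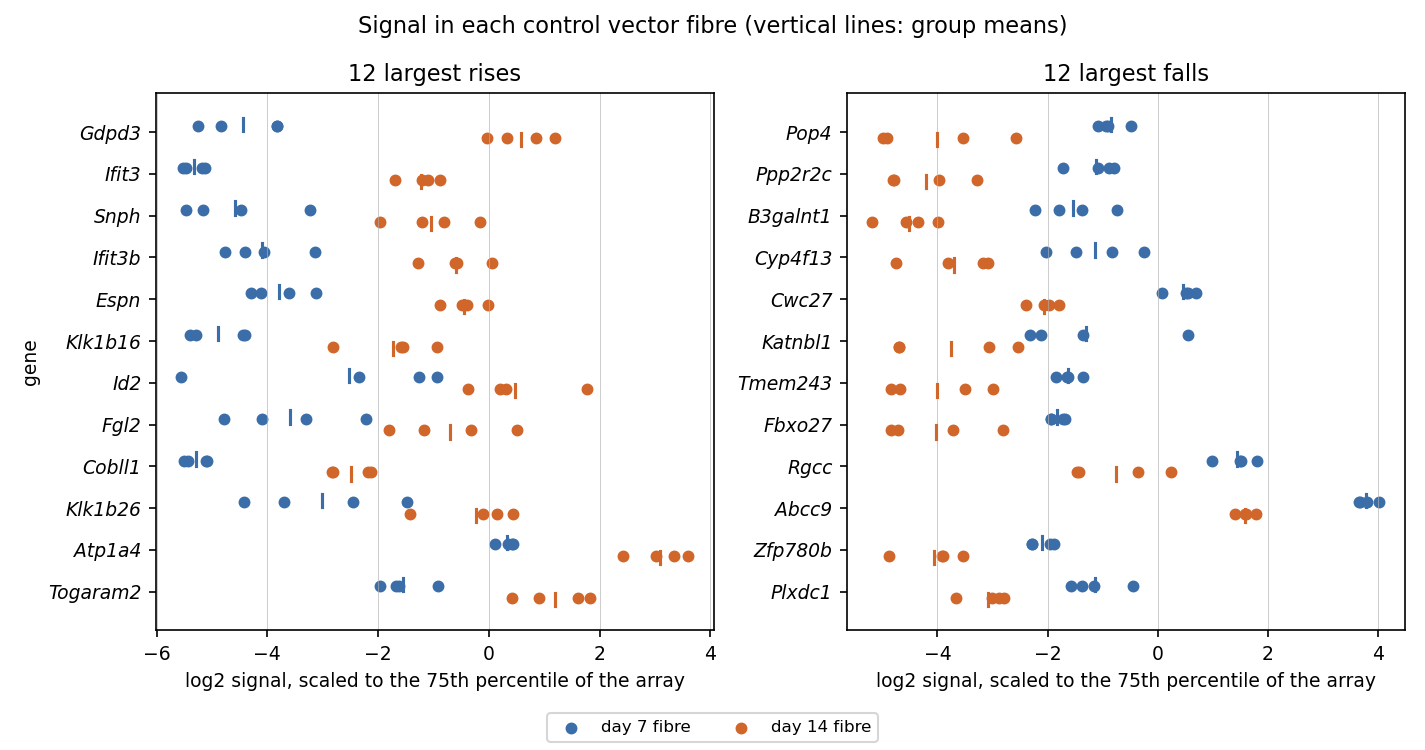
Log2 signal, scaled to the 75th percentile of its array, in each of the 8 control vector fibres, for the 12 largest rises (left) and the 12 largest falls (right) among the named genes that passed; blue points are day 7 fibres, orange points day 14 fibres, and vertical lines the group means. The 2 days do not overlap for any of the 24 genes, and fibre 1 of day 7 lies far from the other day 7 fibres for Id2.

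Among the 12 largest falls, Abcc9 had the smallest error. Abcc9 encodes the sulphonylurea receptor of the ATP-sensitive potassium channel, which couples the energy state of a fibre to its membrane potential. Abcc9 read 4.02, 3.68, 3.65 and 3.79 at day 7 and 1.60, 1.78, 1.58 and 1.40 at day 14. The 2 groups were tight and far apart, with a difference of -2.20 (SE 0.17, adjusted p = 5.34e-09 by limma), a 4.58-fold change. The probe lies at chr6:142536920-142536979 (mm9). Kcnj11, the pore subunit of the same channel, differed by -0.48 and did not pass (adjusted p = 0.277). Abcc9 was the only call among 33 genes of excitation and contraction coupling, whose median was -0.15.

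Cwc27, a cyclophilin that associates with the spliceosome, read 0.70, 0.54, 0.52 and 0.08 at day 7 and -2.06, -1.79, -2.39 and -1.98 at day 14. It was measured on all 8 fibres, and its difference was -2.52 (SE 0.23, adjusted p = 1.69e-07 by limma), a 5.73-fold change. Pop4, a protein subunit of the RNase P and RNase MRP complexes that process RNA, read -1.08, -0.90, -0.49 and -0.94 at day 7 and -4.92, -3.53, -4.99 and -2.57 at day 14. Only 1 of the 4 day 14 fibres was above background (difference -3.15, SE 0.53, adjusted p = 0.00154).

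Ppp2r2c, a regulatory subunit of protein phosphatase 2A, was above background on every day 7 fibre and on no day 14 fibre, a fall of at least 3.37-fold (means -1.12 and -4.21, adjusted p = 0.000103 by limma). The same held for B3galnt1, an enzyme of globoside synthesis (at least 2.52-fold, means -1.53 and -4.52, adjusted p = 0.000914), and for the cytochrome P450 Cyp4f13 (at least 3.30-fold, means -1.15 and -3.70, adjusted p = 0.0042). Tmem243 and the zinc finger gene Zfp780b also fell below background on every day 14 fibre, by at least 2.37-fold and 1.69-fold (adjusted p = 0.000108 and 0.00197). The other probe of Zfp780b differed by only -0.38.

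Rgcc, a regulator of the cell cycle first described as a complement response gene, read 1.51, 1.81, 1.49 and 0.99 at day 7 and 0.25, -0.36, -1.43 and -1.47 at day 14. Every day 14 fibre was lower (difference -2.20, SE 0.45, adjusted p = 0.00897 by limma), a 4.59-fold change on signal that all 8 fibres measured. Fbxo27, an F-box protein that recognises glycoproteins for ubiquitination, fell by 2.20 on the log2 scale (adjusted p = 0.000379), Katnbl1, a katanin subunit homologue, by 2.44 (adjusted p = 0.0145) and Plxdc1, a plexin domain protein, by 1.95 (adjusted p = 0.0134). The call of Katnbl1 was lost in 5 of 18 settings, among them those without fibre 3 of day 7 or fibre 2 or 3 of day 14. Abhd16b fell by 1.33 (SE 0.18, adjusted p = 7.26e-05).

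Mcu, the gene that the other vectors of the study raise or silence, showed no call. It read 2.66, 2.30, 2.31 and 3.04 at day 7 and 2.35, 2.66, 2.81 and 2.41 at day 14, with full overlap and a difference of -0.02 (SE 0.38, adjusted p = 0.982 by limma). None of 12 genes of the uniporter complex and its regulators passed by limma, with 2 higher and 1 lower at an unadjusted p below 0.05.

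Genes of energy metabolism leaned to higher levels at day 14. Of 37 subunits of respiratory complex I, 35 had a positive difference, with a median of 0.22, and of 42 subunits of complexes II to V, 40 did, with a median of 0.27. Among all genes 53.3% had a positive difference and the median was 0.03. In the TCA cycle and pyruvate dehydrogenase list 23 of 26 were positive (median 0.34) and in fatty acid oxidation 24 of 28 (median 0.42). Subunits of 1 complex were measured on the same 8 fibres and are not independent of each other.

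Few of these genes passed singly. They were Ndufa7 in complex I, Cox7b of cytochrome oxidase, and Pdhx, which anchors a subunit within the pyruvate dehydrogenase complex. No gene of fatty acid oxidation passed by limma, with 4 higher at an unadjusted p below 0.05. At that level 5 of 37 complex I genes, 12 of 42 genes of complexes II to V and 11 of 26 TCA genes were higher, and 0 lower. Over all genes 4608 of 23336 were at that level, in either direction. Cox7b read 6.21, 6.33, 6.20 and 6.56 at day 7 and 6.64, 6.97, 7.04 and 6.85 at day 14, without overlap (difference 0.55, SE 0.14, adjusted p = 0.0307 by limma). Ndufa7 read 4.86, 5.18, 5.02 and 4.94 at day 7 and 5.32, 5.56, 5.38 and 5.43 at day 14 (difference 0.42, SE 0.11, adjusted p = 0.0351). Pdhx differed by 0.54 (SE 0.15, adjusted p = 0.0491). The calls of Ndufa7 and Cox7b were lost in 10 of 19 alternative settings each and that of Pdhx in 15 of 19.

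Averaged over its members, the complex I list read 5.65, 5.74, 5.57 and 5.86 at day 7 and 5.73, 5.96, 6.06 and 6.01 at day 14. The days overlapped, since fibre 1 of day 14 lay within the day 7 range and fibre 3 of day 7 was the lowest. Without that fibre the complex I median was 0.18 and 34 of 37 were positive, and for complexes II to V it was 0.21 with 40 of 42. For the TCA list it was 0.26 with 19 of 26 and for fatty acid oxidation 0.32 with 24 of 28. Glycolysis and glycogen genes had a median of 0.18, with 24 of 32 positive and none passing by limma (6 higher at an unadjusted p below 0.05). Without fibre 3 of day 7 the glycolysis median was 0.11, and with quantile normalization 0.03. Quantile normalization also lowered the complex I median to 0.13.

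Ribosomal protein genes had the opposite tendency. Of 43 cytosolic ribosomal protein genes 7 had a positive difference and the median was -0.11, and without fibre 3 of day 7 it was -0.05 with 14 positive. Quantile normalization took it to -0.19. The only call was a rise of Rps3 (difference 0.51, SE 0.14, adjusted p = 0.0476 by limma), whose fibres overlapped between the days and whose 2 other probes differed by less than 0.02 in size (-0.00311 and 0.0132). The call of Rps3 was lost in 15 of 19 alternative settings.

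**Figure D3:**
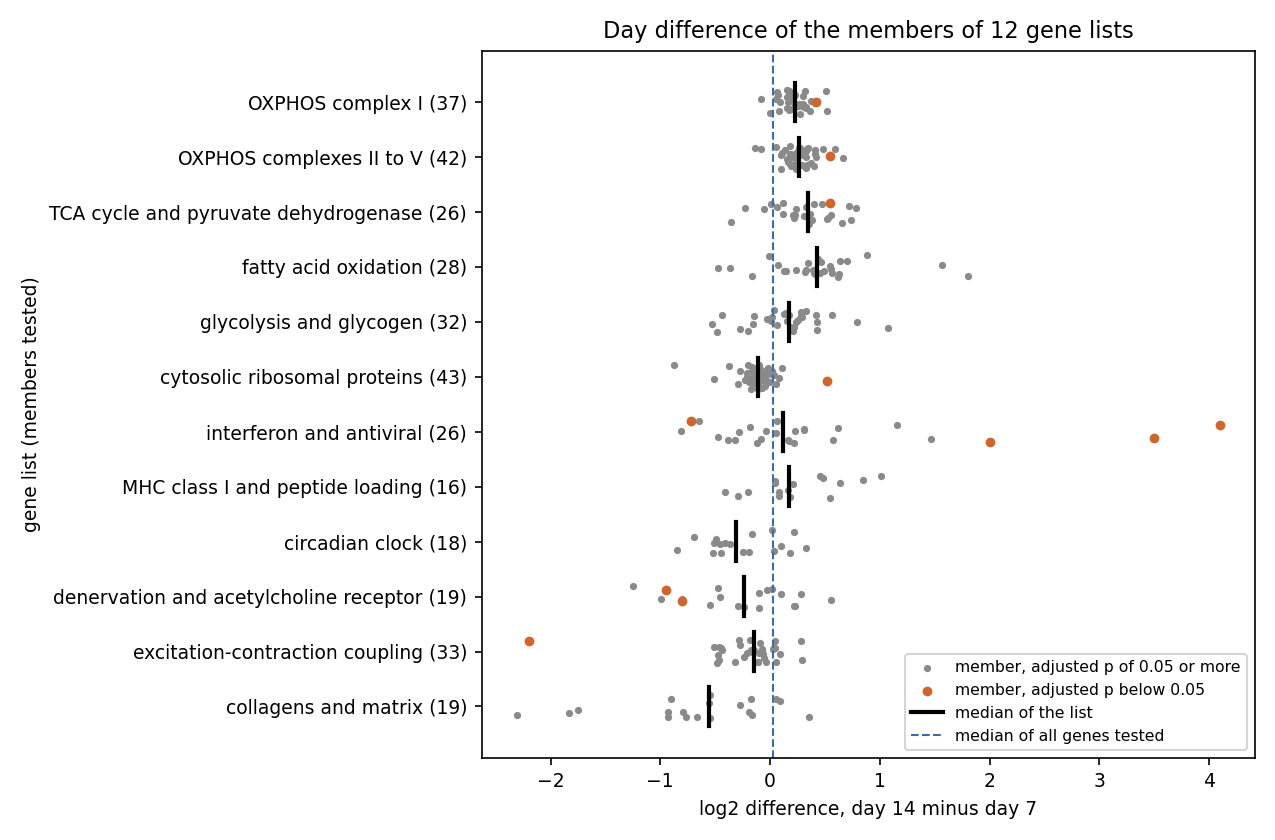
Day difference (log2, day 14 minus day 7) of every tested member of 12 gene lists in control vector fibres; black bars are list medians, the dashed line the median of all genes tested, and orange points members with an adjusted p below 0.05. Respiratory and TCA cycle members lie mostly right of the dashed line and ribosomal proteins mostly left, with 3 interferon genes far to the right.

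Genes of the neuromuscular junction were lower in part. Of 19 genes of the denervation and acetylcholine receptor list, 2 passed, both lower, and the median was -0.23. Chrng, the fetal gamma subunit of the receptor, read 0.56, 0.49, 1.68 and 0.57 at day 7 and -0.04, 0.25, -0.32 and -0.38 at day 14 (difference -0.95, SE 0.22, adjusted p = 0.0175 by limma). Chrnb1, the beta subunit, read 0.81, 0.78, 1.72 and 0.69 at day 7 and 0.44, 0.44, 0.19 and -0.28 at day 14 (difference -0.80, SE 0.20, adjusted p = 0.0295). For both genes fibre 3 of day 7 was far above the rest and the remaining day 7 fibres lay just above the day 14 range. Both calls were lost in 5 of 19 settings, among them those without fibre 3 of day 7 (adjusted p = 0.0601 and 0.111 by limma) or fibre 3 or 4 of day 14. Chrna1, the alpha subunit, differed by -0.80 without passing (adjusted p = 0.164), and so did Ncam1, an adhesion molecule of denervated and regenerating fibres (adjusted p = 0.292). Ncam1 read 2.74 in fibre 3 of day 7 and between -0.50 and -0.02 in the other 7.

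Fibre 3 of day 7 also stood apart in developmental and regeneration genes, in matrix genes and in markers of fibroblasts. The mean of the 15 developmental and regeneration genes tested was 3.08 in it. The other day 7 fibres had 1.33 to 1.45 and the day 14 fibres 1.37 to 1.73. The median difference of that list was -0.11, or -0.05 without this fibre, and its only call was Chrng. Dcn, a proteoglycan of fibroblasts, read 0.15 in fibre 3 of day 7 and was above background on no other of the 8 fibres. Col3a1 read 1.51 in it and -2.87 to -1.30 in the others. The summed signal of the 7 fibroblast markers tested was 7.04 there, against 2.22 to 2.39 in the other day 7 fibres and 2.22 to 3.19 at day 14. The summed signal of the 5 satellite cell markers was 7.02 there, against 4.12 to 5.44 in the other day 7 fibres and 2.95 to 4.99 at day 14. Their mean log2 level there, -0.39, lay within the other day 7 fibres (-0.81 to -0.29). Every day 14 fibre was lower (-1.54 to -1.13), and Pax3, given below, is part of that mean. All 5 differences were negative, with a median of -0.71, or -0.53 without fibre 3 of day 7. Neither Pax7 nor Myf5, which define satellite cells, was tested.

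The collagen and matrix list went with that fibre in part. None of its 19 genes passed by limma, and the median was -0.56. At an unadjusted p below 0.05 there were 4 lower, where 4608 of all 23336 genes were at that level in either direction. The median was -0.27 without fibre 3 of day 7 and -0.20 with normexp background correction. Sparc, a matrix glycoprotein, read 3.48, 3.20, 4.69 and 3.01 at day 7 and 2.08, 2.50, 1.17 and 1.29 at day 14. All 4 day 14 fibres were lower, and its difference of -1.83 had an adjusted p of 0.0705. Lox, the enzyme that crosslinks collagen, differed by -2.31 (adjusted p = 0.122). Col22a1, a collagen of the junction between muscle and tendon, read 2.11, 1.65, 1.90 and 1.75 at day 7 and 0.54, 0.57, -0.08 and 0.90 at day 14. It fell by 1.37 on the log2 scale (SE 0.36, adjusted p = 0.0355 by limma) with no overlap, and fibre 3 of day 7 was not the highest. The call was lost in 10 of 19 alternative settings, 7 of which left out 1 fibre, with adjusted p up to 0.111. Among the 6 tendon markers tested it was the only call, and their summed signal was 29.3 to 42.0 at day 7 and 42.1 to 80.8 at day 14. That sum includes the bright Ankrd1 (means 4.57 and 4.81), which is also in the list of muscle stress genes. It also includes Thbs4 (means 2.43 and 4.15, adjusted p = 0.133 by limma). Scx differed by -0.25 (adjusted p = 0.365 by limma), and Tnmd and Comp were not tested.

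Pax3, a transcription factor of muscle precursors, was above background on 3 day 7 fibres and on no day 14 fibre, a fall of at least 1.88-fold (means -1.95 and -3.96, adjusted p = 0.0127 by limma). It was the only call among the 5 satellite cell markers, and fibre 3 of day 7 read -1.98, within the range of the other day 7 fibres.

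Single members passed in a few further lists. Dicer1, which cuts hairpin RNA into small RNAs, read 0.80, 0.36, 0.27 and 0.42 at day 7 and -0.24, -0.40, -0.41 and -0.52 at day 14. It was lower in every day 14 fibre (difference -0.85, SE 0.23, adjusted p = 0.0405 by limma), but the call was lost in 12 of 19 alternative settings. It was the only call among 13 genes of small RNA machinery, with a median of -0.20 (-0.12 with normexp background correction). Dgcr8, which helps to cut microRNA precursors in the nucleus, differed by -0.51 (adjusted p = 0.0519). In wild type fibres, which have no vector, the day difference of the small RNA list had a median of -0.32, with 1 of 13 lower (1.14% of all genes). In silencing fibres the median was 0.03 and 0 passed.

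Nbr1, a receptor that carries ubiquitinated cargo into autophagosomes, differed by -0.79 (SE 0.18, adjusted p = 0.0153 by limma) and was the only call among 23 autophagy genes. Its call was lost in 3 of 19 settings, among them the one without fibre 4 of day 14. Tpm3, the slow tropomyosin, differed by 0.87 (adjusted p = 0.0425) and was the only call among 12 slow sarcomere genes. That call was lost in 10 of 19 settings. The other 2 probes of Tpm3 differed by 0.13 and 1.96.

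No member passed by limma in the lists of fast sarcomere (19 genes), circadian clock (18), immediate-early genes (23), FoxO and atrophy (17), heat shock (18), integrated stress response (22), antioxidant defence (18), p53 (19), growth signalling (23) and the constitutive proteasome (31). The clock list had a median of -0.31 with 3 lower at an unadjusted p below 0.05, and its median was -0.12 with normexp background correction. The integrated stress response list had 5 higher at that level, and its median of 0.04 changed sign between settings (-0.03 to 0.07). Ankrd2, a stretch-responsive gene, read 1.35, 2.40, 2.23 and 3.60 at day 7 and 5.01, 3.97, 4.58 and 4.16 at day 14. All 4 day 14 fibres were higher, and its difference of 2.03 had an adjusted p of 0.161.

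The same span of days was then read in fibres without a vector and in fibres with the silencing vector, to see where control vector fibres differ. In wild type fibres 548 genes passed (2.35%), 281 higher (1.2%) and 267 lower (1.14%) at day 14. In silencing fibres, which share both slides with the control vector fibres, 1992 passed (8.54%), 726 higher (3.11%) and 1266 lower (5.43%). These counts rest on single fibres too: without fibre 1, 2 or 4 of day 7 wild type gave 238, 250 and 257 calls and without fibre 3 or 4 of day 14 163 and 256. The silencing count was 1306 and 720 without fibre 1 or 2 of day 7 and 1103 without fibre 3 of day 14. Of the 750 control vector genes, 75 changed the same way in silencing fibres (10% of the 750 and 3.77% of the 1992) and 64 the opposite way (8.53% and 3.21%). In wild type fibres 37 changed the same way (4.93% of the 750 and 6.75% of the 548) and 22 the opposite way (2.93% and 4.01%). The day difference itself differed from that of wild type for 531 genes (2.28%), more positive for 264 (1.13%) and more negative for 267 (1.14%). It differed from that of silencing fibres for 966 (4.14%), more positive for 648 (2.78%) and more negative for 318 (1.36%). The 531 became 322 or 332 without fibre 1 or 4 of wild type day 7 and 323 without fibre 4 of wild type day 14.

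The interferon and antiviral list was not changed in control vector fibres alone. Of its 26 genes tested, 3 were higher and 0 lower in silencing fibres, with a median of 0.25. Over all genes 3.11% were higher and 5.43% lower there. In wild type fibres 0 were higher and 2 lower, with a median of -0.11, beside 1.2% and 1.14% of all genes. Ifit3 itself rose in neither of the other kinds of fibre. It fell by 1.32 in wild type (adjusted p = 0.033 by limma), where 4 fibres of day 7 and 1 of day 14 were above background, and differed by -0.20 in silencing fibres (adjusted p = 0.78). Its day difference in control vector fibres exceeded that of wild type by 5.42 (adjusted p = 9.39e-08) and that of silencing fibres by 4.30 (adjusted p = 1e-05). These sizes rest on day 7 signals that no control vector fibre measured. With each signal under its array's lowest measured one raised to that floor, they were 2.77 and 2.00. The level at day 14 was not high among the groups of the study: Ifit3 averaged -1.91 and -3.23 in wild type fibres at days 7 and 14, 0.61 and 0.41 in silencing fibres and 2.63 and -1.46 in fibres with the MCU vector. The control vector fibres of day 7 were the only group in which no fibre was above background.

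Irf1 stood at its highest of the 8 groups in control vector fibres of day 14, at 5.37, against 1.60 to 3.70 in the other groups. Its day difference was 2.08 larger than in wild type and 2.08 larger than in silencing fibres, and neither passed (adjusted p = 0.058 and 0.0509 by limma). Gdpd3 too was highest in control vector fibres of day 14, at 0.59 against -0.97 or less elsewhere. It fell by 2.59 in wild type (adjusted p = 0.0018), where no day 14 fibre was above background, and the fitted day difference exceeded that of wild type by 7.61 and that of silencing fibres by 5.72 (adjusted p = 4.64e-08 and 1e-05). With signals raised to the floor these gaps of Gdpd3 were 5.66 and 4.03.

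Espn rose with and without the vector. It rose by 4.02 in wild type fibres (adjusted p = 1.9e-07 by limma), and the 2 day differences were -0.68 apart (SE 0.50, adjusted p = 0.541), or 0.20 with signals raised to the floor, since no day 7 fibre of either kind was above background. In silencing fibres Espn was above background on no fibre of either day, and the gap to control vector fibres was 2.13 as fitted (adjusted p = 0.0189) and 2.65 with the floor. Zfp780b fell by 2.13 in wild type fibres (adjusted p = 0.00079), and control vector minus wild type was 0.17 (SE 0.47, adjusted p = 0.906), or 0.68 with the floor, since no day 14 fibre of either kind was above background. Other named genes were also near a second kind of fibre with the floor. Klk1b16 differed by 1.30 in control vector and 1.68 in wild type fibres, and Cyp4f13 by -1.72 and -1.38. Tmem243 differed by -1.24 in control vector and -1.29 in silencing fibres, and Plxdc1 by -1.70 and -1.78.

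Abcc9 moved in opposite directions on the same 2 slides. It fell by 2.20 in control vector fibres and rose by 2.77 in silencing fibres (adjusted p = 6.8e-10 by limma), a gap of 4.97 between the 2 day differences (adjusted p = 1.22e-12). In wild type it differed by -0.39 (adjusted p = 0.23). Its level was 3.79 in control vector fibres of day 7 and 4.17 in silencing fibres of day 14, and between 1.37 and 2.02 in the other 6 groups. Glud-ps likewise rose in control vector fibres and fell by 0.74 in silencing fibres (adjusted p = 0.0069).

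**Figure D4:**
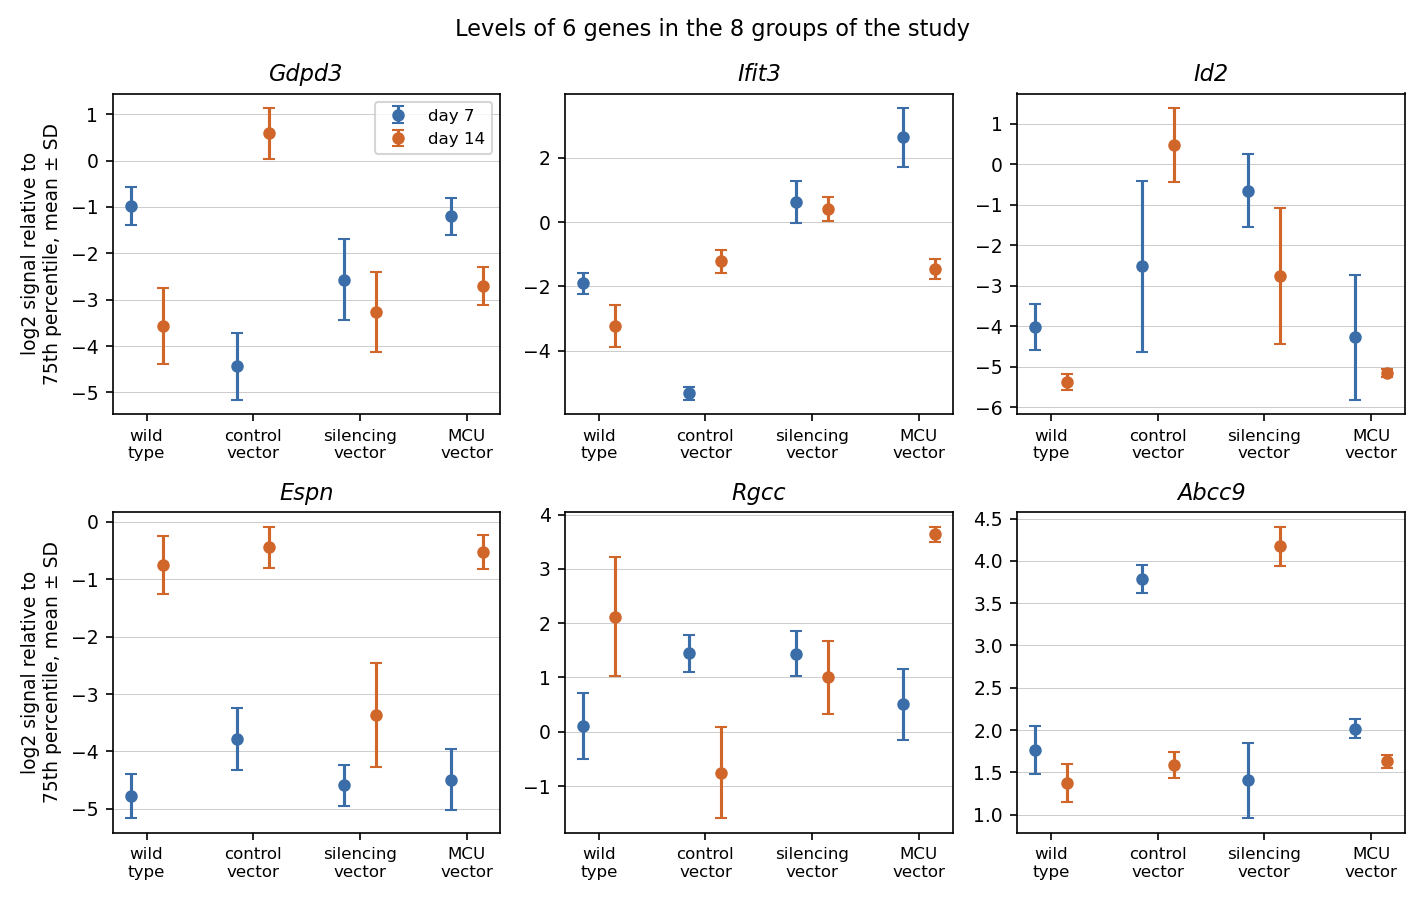
Mean log2 signal, scaled to the 75th percentile of each array (bars: SD over 3 or 4 fibres) of 6 genes in the 8 groups of the study, day 7 in blue and day 14 in orange. Ifit3 was above background on no control vector fibre of day 7 (-5.32), and Espn on no fibre of day 7 in any kind and on no silencing fibre. Gdpd3 was above it on no control vector fibre of day 7, no wild type fibre of day 14 and no fibre of a silencing group. Id2 was above it on no wild type fibre. Points of groups not measured have no order. Abcc9 is high only in control vector fibres of day 7 (3.79) and silencing fibres of day 14 (4.17).

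Rgcc went up in wild type fibres, by 2.01 (adjusted p = 0.017 by limma), where control vector fibres went down, and the day differences were 4.21 apart (adjusted p = 0.000421). Cwc27, Pop4 and Fbxo27 differed from both other kinds of fibre, in which none of the 3 passed. The gap of Cwc27 was -2.22 to wild type and -2.49 to silencing fibres (adjusted p = 0.000277 and 9.18e-05), that of Pop4 -3.36 and -3.25 (adjusted p = 0.0163 and 0.0154) and that of Fbxo27 -2.74 and -2.39 (adjusted p = 0.002 and 0.00481). Id2 also differed from both, by 4.36 and 5.11 (adjusted p = 0.0399 and 0.0128). Part of these signals lay below background. With the floor the gaps were -2.15 and -2.11 for Pop4, -1.51 and -1.16 for Fbxo27 and 2.37 and 3.95 for Id2, whereas those of Cwc27 did not move.

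In the energy metabolism lists the other kinds of fibre gave medians of 0.15 (wild type) and -0.19 (silencing) for complex I and 0.13 and -0.15 for complexes II to V, where the medians of all genes were 0.04 and -0.04. The day difference exceeded that of silencing fibres for 4 of 37 complex I genes and for 1 of 42 genes of complexes II to V, and for none in either list did it differ from wild type by limma. Ndufa7 exceeded silencing fibres by 0.64 and Cox7b by 0.90 (adjusted p = 0.0228 and 0.0114). The other lists of energy metabolism did not share the negative silencing medians throughout. The TCA list had medians of 0.12 (wild type) and 0.16 (silencing), fatty acid oxidation 0.11 and 0.32, and glycolysis and glycogen 0.01 and -0.13.

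**Figure D5:**
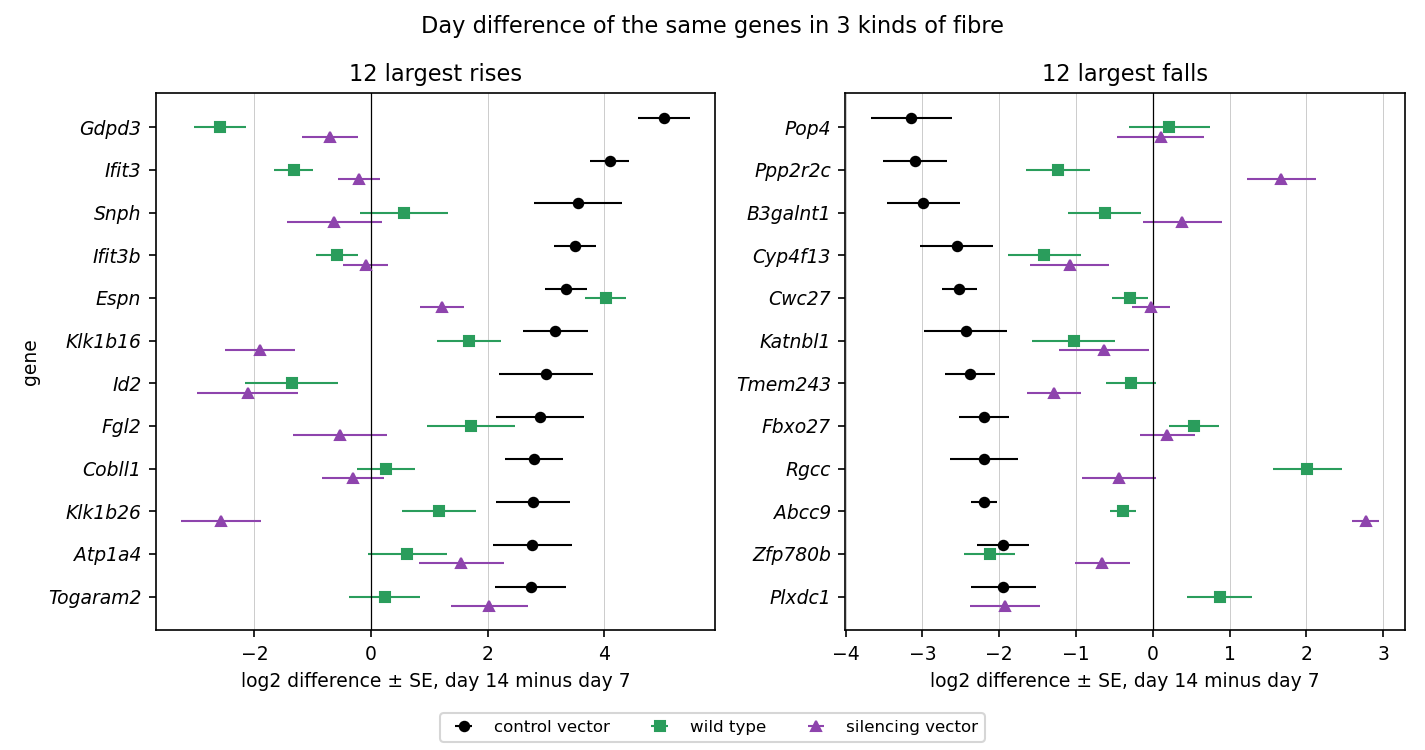
Day difference (log2, day 14 minus day 7, with its SE) of the 12 largest rises and 12 largest falls of control vector fibres (black circles), with the same genes in wild type fibres (green squares) and silencing vector fibres (purple triangles). Wild type fibres lie near the control vector for Espn and Zfp780b. Silencing fibres lie on the other side of 0 for Abcc9, Ppp2r2c, Klk1b16, Klk1b26 and Id2, among others.

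The place of the control vector groups among the 8 groups of the study was read for genes above background on all 30 arrays, since dimmer groups have no order. Of 319 such genes that were higher at day 14, the day 7 group had the lowest mean of the 8 for 199 (62.4%, against 19% of all 16405 such genes) and the day 14 group the highest for 153 (48%, against 12.5%). Of 217 lower genes, the day 14 group was the lowest for 120 (55.3%, against 11.8%) and the day 7 group the highest for 101 (46.5%, against 12.2%). The calls chose these genes for a gap between the same 2 groups, so that the counts describe them and test nothing.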

How the data were processed

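Intensity values of 30 single fibres were read from the deposited scanner files. Per the file headers, Agilent Feature Extraction 10.7.3.1 had subtracted background and detrended each array, with a substitute where a spot was not above background, and had not scaled arrays to each other. Other columns of the deposited files, the control, background and outlier flags, were used as given. Per the labels' protocols, part of each RNA went to a quantitative PCR of MCU, and the rest was amplified and labelled with random primers, so that strand was not kept. Control and outlier spots were left out; log2 intensity minus the array's 75th percentile was used. A probe was kept if 3 or more arrays of some group flagged it as well above background (33156 of 55681), and the brightest stood for its gene (23336 genes, of which 15060 have a symbol in RefSeq's GRCm38.p6 annotation).

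limma 3.58.1 (R 4.3.3, the data.table package, version 1.17.8) fitted 8 group means to all 30 arrays with 22 residual degrees of freedom; p-values are 2-sided and Benjamini-Hochberg adjusted over all genes, with 0.05 as threshold. The fit was tested on simulated data. Figures used Python with matplotlib 3.10.9. Named genes are the 12 largest rises and 12 largest falls with a RefSeq symbol and signal on all fibres of a day, up to 4 members of each of 47 lists by test statistic, Mcu, and the 5 smallest p-values of each other comparison in each direction. A few other list members, and Glud1, Kcnj11, Oas1a and markers in fibre 3 of day 7, were named after their values were seen. A few genes are not reported here. Members and lists were chosen with earlier results of these data known. Same-numbered fibres of the 2 days did not deviate together (r from -0.0876 to 0.0368), so numbers were not used as pairs. The submitters' deposited series matrix holds intensity too, by its values, with steps not given in the sources used here, and served as an alternative. The number of arrays limits the precision.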

Additional observations from a re-analysis of the deposited data

Results flagged for a closer look

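Among the 39 genes followed in the control vector fibres, 78 groups of 4 were looked at for a fibre far from the other 3, and 4 were found; chance gives about 1 in 20. Fibre 3 of day 7 was far above the others for Chrng (1.68, others 0.49 to 0.57), Chrnb1 (1.72, others 0.69 to 0.81) and Gzmb (-1.97, others -2.30 to -2.26). Fibre 4 of day 14 was far below for Gzmb (-3.90, others -2.96 to -2.85), where no day 14 fibre was above background.

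For 12 of the 39 genes the day difference differed from that of wild type fibres, which lie on other slides, by limma's interaction test. For 18 it differed from that of silencing fibres. Over all genes tested the shares were 2.28% and 4.14%. All of the 39 but Mcu were chosen for passing in control vector fibres, whose values enter both gaps. The counts thus describe these genes and test nothing. The gaps of dim genes are fitted values and no measured sizes: with signals raised to the floor they were 5.66 and 4.03 for Gdpd3 and 2.77 and 2.00 for Ifit3 (wild type, then silencing), and those of Snph, Ifit3b, Klk1b16, Klk1b26, Cobll1, Id2, Pop4, Ppp2r2c, B3galnt1, Tmem243, Fbxo27, Plxdc1 and Pax3 were smaller too. Control vector minus wild type was 7.61 for Gdpd3, 5.42 for Ifit3, 4.08 for Ifit3b, 4.36 for Id2, -3.36 for Pop4, -2.22 for Cwc27, -2.09 for Tmem243, -2.74 for Fbxo27, -4.21 for Rgcc, -1.81 for Abcc9, -2.82 for Plxdc1 and -2.28 for Pax3. Control vector minus silencing was positive for Gdpd3 (5.72), Ifit3 (4.30), Snph (4.17), Ifit3b (3.58), Espn (2.13), Klk1b16 (5.07), Id2 (5.11), Cobll1 (3.10), Klk1b26 (5.35), Ndufa7 (0.64) and Cox7b (0.90). It was negative for Pop4 (-3.25), Ppp2r2c (-4.77), B3galnt1 (-3.38), Cwc27 (-2.49), Fbxo27 (-2.39), Abcc9 (-4.97) and Pax3 (-2.30).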

How the results depend on the processing

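Of all genes tested, 3.21% (750) were called in control vector fibres. The share was 0.459% with the 8 arrays alone (59 higher and 48 lower), 1.92% with median scaling (448) and 1.25% without a filter on dim probes (443). With a replicate block, which the fibres' numbers do not justify, it was 1.86% (433), and the block gave 1.5% for wild type (351), 1.45% for control vector minus wild type (338) and 2.68% for control vector minus silencing (626). Normexp background correction gave 4.28% for wild type (998) and 4.23% for control vector minus wild type (988). Leaving out each fibre in turn gave 1.56% to 3.13% for control vector (364 to 731), 0.698% to 2.23% for wild type (163 to 521), 3.09% to 10.4% for silencing (720 to 2419), 1.38% to 2.46% for control vector minus wild type and 3.01% to 4.24% for control vector minus silencing. The fit of 8 arrays has fewer arrays to estimate the spread, and leaving out a fibre fewer samples; the cause of the other changes was not tested. Other settings gave 503 to 1041 control vector calls. Of 720 pairs of a named gene and a setting, 548 kept direction and side of the threshold, 166 kept direction only and 6 changed sign. These 6 were of Mcu, which did not pass: 0.00703 with the percentile over probes above background on all arrays, 0.000733 with the share of probes above background as a covariate, and otherwise when a fibre was left out, which gave -0.115 to 0.130. The alternative without fibre 3 of day 7 for the gene lists, and the floor for gaps between day differences, were chosen after seeing the data. Dim genes have only a bound, and day and slide cannot be separated.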
